A study of Homo sapiens with 6 samples.

Results

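The genes described here are the kinesins, the centromere proteins (CENP), the BUB checkpoint genes, the Aurora (AURK), Polo-like (PLK) and NEK kinases, and TTK, NDC80 and HASPIN. The rule goes by symbol alone but was set with earlier results of these data known. Of the 14884 genes named on the array 83 met the rule. Each gene is shown by the probe set whose mean over the 6 arrays was highest, out of 89 probe sets that named a member. By role, 14 were mitotic kinesins, 17 centromere and kinetochore genes, 11 mitotic kinases or checkpoint genes, 15 transport kinesins, 13 other kinesins and 11 other PLK and NEK kinases. A further 2 matched by name only, the pseudogene CENPBD2P and the antisense RNA KIF9-AS1. CENPE, CENPF, NUF2 and TPX2 belong to the same machinery but were named by no probe set of the annotation used, and were not analysed here.

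The RNA came from A549, an established human lung adenocarcinoma line, grown as 2D culture on attachment plates for 7 days in DMEM with serum. The LA717 group received 0.03% (w/v) of the low-molecular-weight agar LA717, the control group received Milli-Q water instead, and each group had 3 arrays. On the LA717 arrays 1 label speaks of low-attachment plates, against the titles and treatment text of the same arrays. The labels do not state that the 3 samples of a group were separate cultures, so p-values measure only the spread between these samples, which may be technical. Values are log2 intensities, which can be compared between arrays for 1 probe set but not between probe sets. Array medians ran from 3.19 to 3.23 and pairs of arrays correlated across probe sets at r between 0.9899 and 0.9913. Of 11 A549 markers 3 were measured (KRT7, KRT8 and KRT18, control means 5.71, 6.18 and 11.1). Of 7 fibroblast, 7 leukocyte and 5 endothelial markers 3 each were measured, and since levels of different probe sets are not comparable and no signal over background is given, they do not show which cell types were absent.

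Kinesins are motors that walk along microtubules or take them apart. Mitotic kinesins build, slide and position the spindle and carry out cytokinesis, whereas transport kinesins carry vesicles, organelles and mRNA in cells of any phase. Kinetochores couple chromosomes to the spindle through the NDC80 complex, the checkpoint kinases BUB1 and TTK watch over that attachment, and Aurora and Polo-like kinases drive entry into mitosis and exit from it. Many of these genes are transcribed mostly in the G2 and M phases. In many of their promoters a cell cycle genes homology region (CHR) lies close to the transcription start, with CCAAT boxes upstream of it that bind NF-Y.

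The last 100 bases before the transcription start of 9 members are shown because they place these elements in genes whose intensities are described later. Capitals mark a CHR (TTTGAA or TTCGAA) or a CCAAT box (CCAAT), on either strand. Sequences are those of RefSeq, build GRCh38.p14, written 5′ to 3′ in the direction of the gene.
KIF11 (chr10:92593030-92593129, plus strand): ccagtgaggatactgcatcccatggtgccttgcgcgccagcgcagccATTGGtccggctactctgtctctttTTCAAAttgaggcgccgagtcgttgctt
KIF4A (chrX:70290004-70290103, plus strand): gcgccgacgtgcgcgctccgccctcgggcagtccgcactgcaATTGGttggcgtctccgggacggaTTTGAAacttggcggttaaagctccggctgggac
KIF23 (chr15:69414249-69414348, plus strand): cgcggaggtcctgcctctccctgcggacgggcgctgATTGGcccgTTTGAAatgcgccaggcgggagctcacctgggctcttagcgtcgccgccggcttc
KIF18A (chr11:28108157-28108256, minus strand): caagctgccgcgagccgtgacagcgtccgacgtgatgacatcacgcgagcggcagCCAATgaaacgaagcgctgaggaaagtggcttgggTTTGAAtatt
PLK1 (chr16:23678789-23678888, plus strand): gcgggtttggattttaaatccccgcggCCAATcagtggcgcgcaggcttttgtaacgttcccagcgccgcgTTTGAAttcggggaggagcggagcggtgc
BUB1B (chr15:40160969-40161068, plus strand): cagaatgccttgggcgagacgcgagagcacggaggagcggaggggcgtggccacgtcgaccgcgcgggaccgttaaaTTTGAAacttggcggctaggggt
KIF20A (chr5:138179012-138179111, plus strand): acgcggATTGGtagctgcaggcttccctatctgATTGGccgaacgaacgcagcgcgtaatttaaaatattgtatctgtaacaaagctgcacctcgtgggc
KIF5B (chr10:32056426-32056525, minus strand): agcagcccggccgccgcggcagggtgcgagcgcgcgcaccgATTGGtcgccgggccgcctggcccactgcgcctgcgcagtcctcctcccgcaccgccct
KIF3A (chr5:132737547-132737646, minus strand): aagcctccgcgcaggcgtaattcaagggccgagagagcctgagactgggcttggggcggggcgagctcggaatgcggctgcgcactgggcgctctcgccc
KIF11, KIF4A, KIF23, KIF18A and PLK1 each held a CCAAT box followed by a CHR. In KIF11 the CHR began 28 bases before the start and the CCAAT box 53 bases before it, and in PLK1 these distances were 29 and 73 bases. BUB1B had a CHR alone and KIF20A a pair of CCAAT boxes. The stretch of KIF5B held a CCAAT box and that of KIF3A neither, both being transport kinesins.

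The shares of matching promoters differed between the roles. Over the full window of 300 bases, from 250 before to 50 after the start, a CHR was found in 11 of 14 mitotic kinesins (78.6%), 4 of 7 mitotic kinases (57.1%) and 6 of 14 centromere genes (42.9%). It was found in 1 of 11 transport kinesins (9.09%), in KIF5B, and in 1 of 9 other kinesins, KIF24. No match was present in the 10 other PLK and NEK kinases. Of 27305 genes with a promoter in the same table, 19.5% held a CHR. A CCAAT box stood in 78.6% of mitotic kinesins, 36.4% of transport kinesins and 39.7% of all genes. Both elements together were present in 10 of 14 mitotic kinesins (71.4%), against 7.85% of all genes. An E2F-type element (GCGGGAA, either strand) was present in 0 of 14 mitotic kinesins, 2 of 11 transport kinesins and 7.82% of all genes. KIF20A, KIF2C and KIF2B were the mitotic kinesins with no CHR match, which says only that these letters are not in this window. Within 150 bases around the start the CHR count stayed at 11 in mitotic kinesins and went to 0 in transport kinesins, where 9.09% of all genes held a match. A match is a description of the sequence, not a site of binding.

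**Figure D1:**
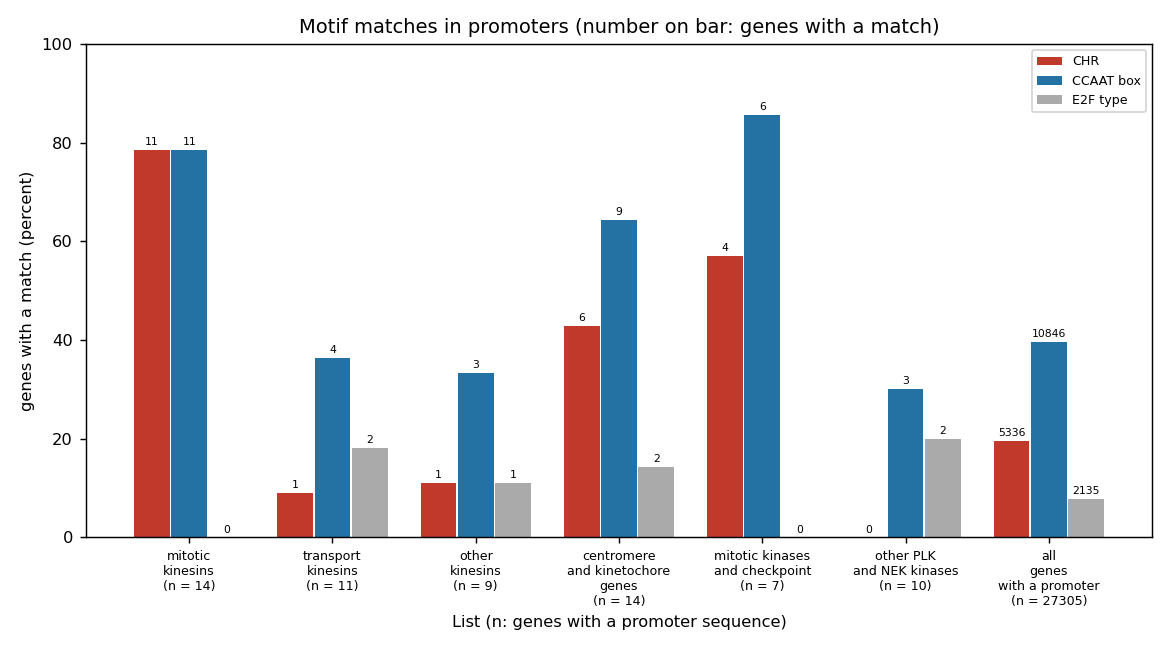
Share of genes (percent, vertical axis) whose 300-base promoter holds a CHR, a CCAAT box or an E2F-type element, by list, with the number of matching genes above each bar and the number of genes with a promoter under each list. The CHR bar stands at 78.6% for mitotic kinesins, 9.09% for transport kinesins and 19.5% for all genes.

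Among the mitotic kinesins values varied between the arrays of a group, mostly with replicate 3 the highest. KIF11, the motor that slides spindle poles apart, read 7.93, 7.89 and 8.31 in control replicates 1 to 3 and 7.84, 8.18 and 8.17 with LA717. Its group means differed by 0.02 (95% interval −0.33 to 0.37), with the highest array in control and the lowest with LA717. KIF20A, a cytokinesis motor of the central spindle, read 6.35, 6.41 and 6.96 in control and 6.67, 6.92 and 7.19 with LA717. Control replicate 3 of KIF20A lay above LA717 replicates 1 and 2, and the difference of the means was 0.36 (interval −0.11 to 0.82). It was 0.22 without LA717 replicate 3 and 0.55 without control replicate 3. KIF23, the kinesin of the centralspindlin complex, gave 7.91, 7.78 and 8.21 in control and 7.97, 7.96 and 8.32 with LA717. The microtubule depolymerase KIF2C gave 5.95, 5.80 and 6.42 in control and 5.95, 6.20 and 6.52 with LA717. Both had their highest value of each group in replicate 3, and their groups overlapped.

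KIF15, which supports KIF11 in keeping the spindle bipolar, stood at 4.23, 4.40 and 4.71 in control and at 4.36, 4.66 and 5.06 with LA717. KIF20B, another midzone motor, stood at 6.65, 6.84 and 6.98 and at 7.00, 6.89 and 7.19. Their differences were 0.25 and 0.20, each with an interval that included 0. For KIF15 the difference was 0.063 without LA717 replicate 3, 0.14 without control replicate 1, 0.38 without control replicate 3 and 0.42 without LA717 replicate 1. For KIF20B it was 0.12 without control replicate 1 or LA717 replicate 3. KIFC1, the minus-end motor that gathers spindle poles, read 5.44, 5.75 and 5.79 in control and 5.58, 5.76 and 5.92 with LA717. Of 4 probe sets naming KIFC1, 2 held identical values, and the others gave differences of 0.03 and −0.00041 against 0.09 for the one shown. KIF2B, a depolymerase related to KIF2C, varied between 4.31 and 4.62 with no order by group. KIF18A, described because its promoter is shown, read 7.21, 7.29 and 7.41 in control and 7.16, 7.33 and 7.33 with LA717. Its difference was −0.03.

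The chromokinesin pair KIF4A and KIF4B, chosen for description after their values were seen, differed in opposite directions in replicate 3. KIF4A read 6.33, 6.40 and 7.23 in control and 6.76, 6.65 and 7.15 with LA717, so replicate 3 was highest in each group. KIF4B, an intronless copy of KIF4A, read 5.32, 5.14 and 5.02 and then 5.49, 5.42 and 4.96, so replicate 3 was lowest in each group. The 2 genes are nearly identical in coding sequence, and how far their probes share transcripts was not tested.

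Across the 14 mitotic kinesins 12 had a positive difference (LA717 minus control), against 47.9% of all genes, with a median of 0.12 on the log2 scale and a range from −0.06 for KIF2B to 0.36 for KIF20A. The median over all genes was −0.0061. By limma 0 passed adjustment (lowest adjusted p = 0.92), and 0% of all genes did, and at an unadjusted p under 0.05 there were 0. None had groups that did not overlap. The median was 0.0038 without LA717 replicate 3, 0.03 without control replicate 2 and 0.06 without control replicate 1, and 0.22 without control replicate 3 and 0.19 without LA717 replicate 1. The count of positive differences was 8 without LA717 replicate 3 or control replicate 1.

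**Figure D2:**
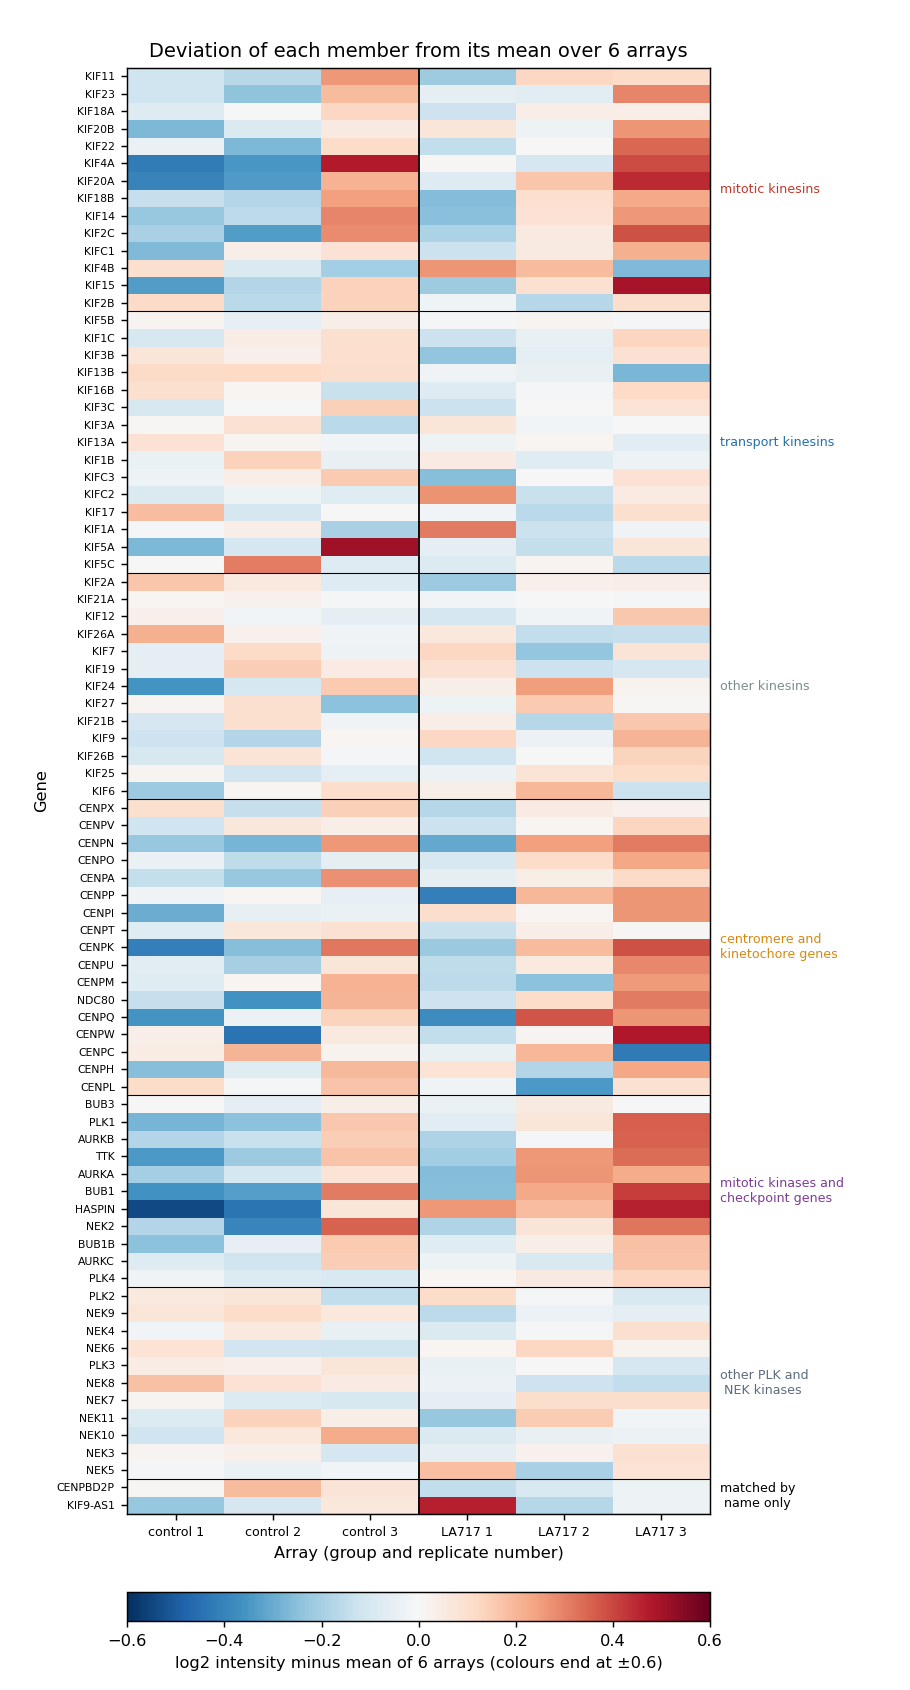
Each row is a gene and each column an array, coloured by the log2 intensity minus the gene's mean over 6 arrays (red higher, blue lower, colours ending at ±0.6). The mitotic kinesins, centromere genes and mitotic kinases are mostly blue in control replicates 1 and 2 and LA717 replicate 1, and mostly red in replicate 3 of both groups, whereas the transport kinesins show no shared pattern.

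The mitotic kinases and checkpoint genes varied in the same way. Each of the 11 had a positive difference, against 47.9% of all genes. The sign turned for AURKB, BUB1B, BUB3 and NEK2 when 1 array was left out. PLK1, which drives centrosome maturation and mitotic entry, read 8.63, 8.67 and 9.07 in control and 8.85, 8.98 and 9.27 with LA717, a difference of 0.24 (interval −0.13 to 0.62). AURKA, the spindle pole Aurora kinase, read 6.13, 6.23 and 6.42 and then 6.08, 6.60 and 6.56. AURKB, the catalytic subunit of the chromosomal passenger complex, read 7.18, 7.22 and 7.51 and then 7.17, 7.35 and 7.71. In these 3 genes control replicate 3 exceeded LA717 replicate 1, so no group lay wholly above the other. BUB1 read 5.79, 5.82 and 6.46 in control and 5.90, 6.38 and 6.57 with LA717, and its partner BUB1B, which inhibits the anaphase-promoting complex, read 5.34, 5.54 and 5.74 and then 5.51, 5.62 and 5.76. TTK, the kinase at the top of the checkpoint, read 6.09, 6.22 and 6.61 and then 6.23, 6.70 and 6.77. NEK2, which splits centrosomes, read 5.60, 5.38 and 6.13 and then 5.59, 5.85 and 6.10. In BUB1, TTK and NEK2 control replicate 3 exceeded the mean of its fellow replicates by 0.66, 0.45 and 0.64. The differences between the groups, which average more arrays and are not like for like with these, were 0.26, 0.26 and 0.15. Single arrays moved the group differences. Without LA717 replicate 3 they were 0.11 for BUB1, 0.16 for TTK and 0.12 for PLK1, and without control replicate 3 they were 0.48, 0.41 and 0.38. BUB1 and TTK stood at 0.14 and 0.15 without control replicate 1 and at 0.45 and 0.43 without LA717 replicate 1, and BUB1 at 0.15 without control replicate 2.

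BUB3, which brings BUB1 and BUB1B to kinetochores but is also part of complexes outside mitosis, stayed within 8.90 to 9.01 on all 6 arrays. Its difference was 0.01 (interval −0.18 to 0.21). PLK4, the trigger of centriole duplication, read 4.11, 4.05 and 4.04 in control and 4.14, 4.19 and 4.26 with LA717. The PLK4 groups did not overlap, and the difference was 0.13 (interval −0.07 to 0.32, limma adjusted p = 0.92).

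HASPIN, the kinase that phosphorylates histone H3 at threonine to place the passenger complex at centromeres, had the largest difference of the 83 members. It read 5.47, 5.57 and 6.09 in control and 6.27, 6.20 and 6.48 with LA717. The groups did not overlap, control replicate 3 lying just under LA717 replicate 2. The difference was 0.61 (SE 0.17, interval 0.20 to 1.01), with a limma p of 0.00897 before adjustment and 0.917 after it. HASPIN was the member whose interval reached beyond 2-fold, while the intervals of the other 82 lay within 2-fold in both directions, as did those of 99.6% of all genes. All 83 intervals lay within 2-fold with an intensity trend and robust variance, with a replicate block, without control replicate 1 and without LA717 replicate 3. With each array left out its difference ran from 0.49 to 0.79.

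As a list, the 11 mitotic kinases and checkpoint genes had a median difference of 0.15 and a range from 0.01 for BUB3 to 0.61 for HASPIN. Groups without overlap were those of 2 genes, HASPIN and PLK4, both higher with LA717, against 4.86% of all genes in that direction. HASPIN was the 1 gene of the list at an unadjusted p under 0.05, which 1.89% of all genes reached on the high side. The median was 0.08 without LA717 replicate 3 and 0.09 without control replicate 1, and 0.27 without LA717 replicate 1 and 0.23 without control replicate 3.

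Centromere and kinetochore genes were split, some following the pattern of the mitotic kinesins and some not. CENPA, the histone variant that marks centromeres, read 5.86, 5.77 and 6.28 in control and 5.95, 6.03 and 6.12 with LA717. NDC80, the outer kinetochore subunit that binds microtubules, read 4.74, 4.51 and 5.08 and then 4.75, 4.99 and 5.19. CENPK, of the constitutive centromere network, read 4.95, 5.10 and 5.67 and then 5.14, 5.55 and 5.74, and CENPW, which pairs with CENPT, read 4.90, 4.42 and 4.92 and then 4.71, 4.88 and 5.34. Replicate 3 was the highest array of its group in all 4 genes, and the groups overlapped. CENPI, of the same network as CENPK, read 5.43, 5.68 and 5.68 in control and 5.83, 5.74 and 5.99 with LA717. Its groups did not overlap, with a difference of 0.26 (interval −0.01 to 0.52, limma adjusted p = 0.92).

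CENPX, which joins CENPT at kinetochores and also works in DNA repair, ranged from 7.97 to 8.29 over the 6 arrays, with the lowest in LA717 replicate 1 and the highest in control replicate 3. CENPL, a partner of CENPN, read 4.20, 4.09 and 4.27 and then 4.07, 3.75 and 4.19. CENPC, named after its values were seen, went the other way between arrays, with 4.80, 4.95 and 4.77 in control and 4.71, 4.95 and 4.33 with LA717, where replicate 3 was the lowest array of each group. Of 17 genes 12 had a positive difference, the median was 0.09 and the range ran from −0.18 to 0.26, and 0 reached an unadjusted p under 0.05 by limma. The median was 0.02 without LA717 replicate 3 and 0.04 without control replicate 1, and 0.24 without LA717 replicate 1 and 0.20 without control replicate 3.

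The transport kinesins were flat by comparison. KIF5B, the ubiquitous conventional kinesin heavy chain, read 10.23, 10.17 and 10.25 in control and 10.20, 10.23 and 10.21 with LA717. Its difference was −0.0015 with an interval from −0.19 to 0.19. KIF3A and KIF3B form the motor of intraflagellar transport. KIF3A read 6.80, 6.88 and 6.63 and then 6.86, 6.77 and 6.79, and KIF3B read 8.23, 8.19 and 8.26 and then 7.92, 8.10 and 8.25. Neither separated the groups. KIF1B, a carrier of mitochondria and synaptic vesicle precursors, read 6.53, 6.71 and 6.52 and then 6.62, 6.49 and 6.54, and its second probe set differed by 0.04 against −0.04 for the one shown. KIF5C, a neuronal heavy chain, varied between 2.53 and 2.99, under the median of all probe sets (3.19).

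KIF13B, a motor that carries signalling lipids and receptors, had the difference of greatest size among transport kinesins. It read 7.83, 7.84 and 7.82 in control and 7.70, 7.68 and 7.45 with LA717. Every LA717 array lay under every control array, as in 6.66% of all genes, and the difference was −0.23 (SE 0.10, limma adjusted p = 0.92). Differences were positive in 4 of the 15 transport kinesins, and the median was −0.04 in a range from −0.23 to 0.13. At an unadjusted p under 0.05 there were 0. The median was −0.08 without LA717 replicate 3 and −0.07 without control replicate 1, and −0.02 without LA717 replicate 1 or 2.

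**Figure D3:**
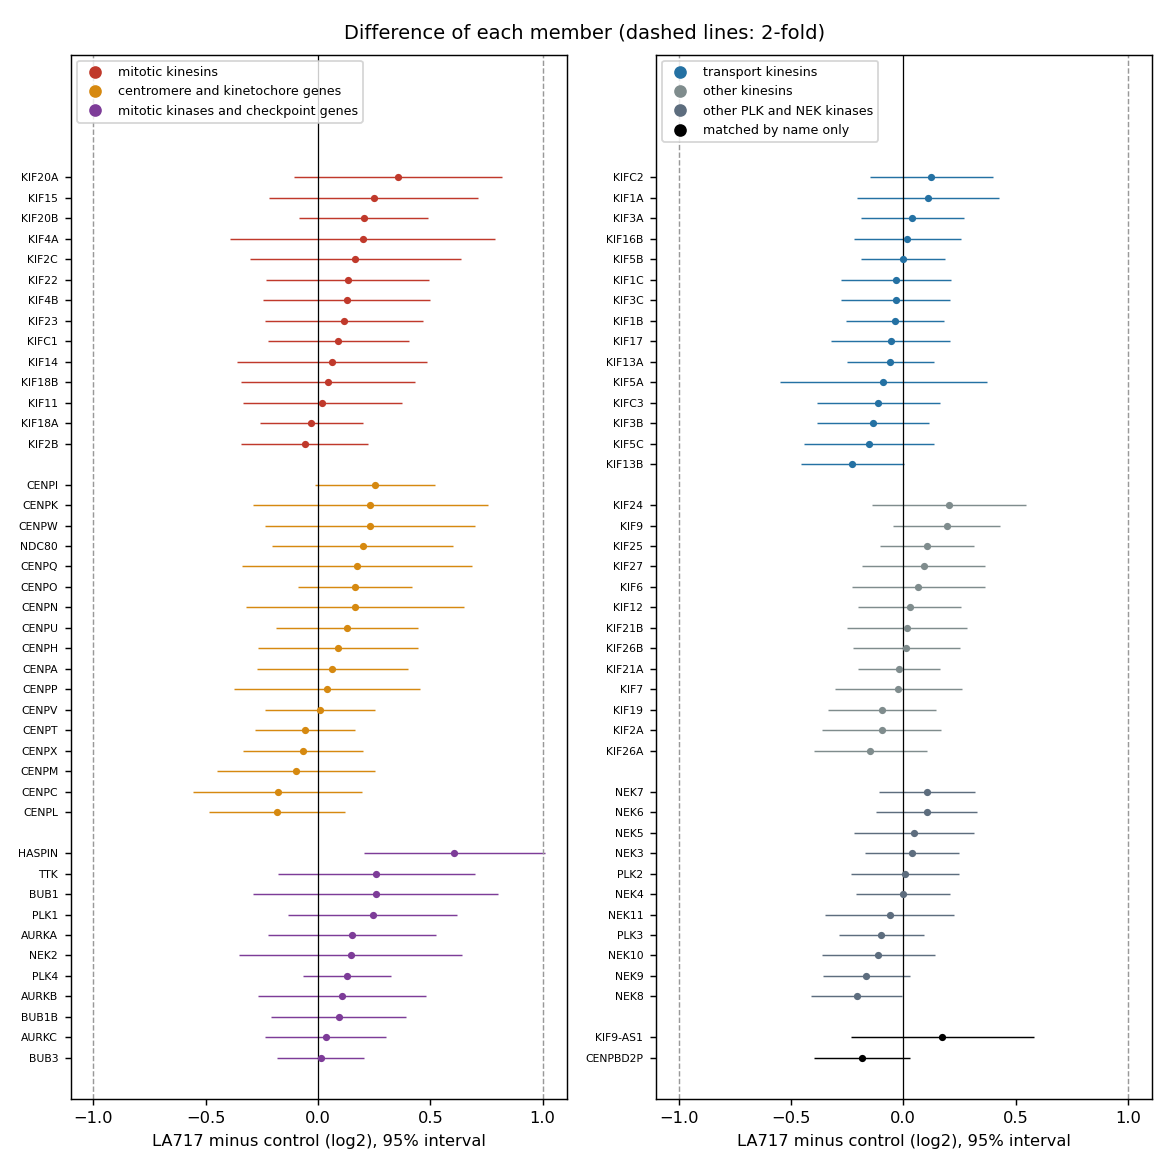
LA717 minus control (log2, horizontal axis) for each of the 83 genes, with the moderated 95% interval as a line and 2-fold as dashed lines, coloured by role. Mitotic kinases all lie right of 0, HASPIN at 0.61 is the gene whose interval crosses the 2-fold line, and the intervals of transport kinesins are mostly shorter than those of mitotic kinesins.

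Averaged over each list, the contrast between mitotic and transport kinesins lay in the spread between arrays. The mean of the 14 mitotic kinesins was 6.22, 6.21 and 6.57 in control (6.33 ± 0.20, SD, n = 3) and 6.30, 6.43 and 6.63 with LA717 (6.45 ± 0.167). Its group means differed by 0.12, and the groups overlapped. The pooled SD of single arrays was 0.184, which includes the height of replicate 3 in both groups. At each replicate number the LA717 mean lay above the control mean, but no label makes equal numbers pairs. The mean of the 15 transport kinesins was 6.24, 6.28 and 6.27 in control (6.27 ± 0.0216) and 6.22, 6.19 and 6.26 with LA717 (6.22 ± 0.0316). Within a group the mitotic kinesins spanned 0.351 and 0.332 from the lowest to the highest array, and the transport kinesins 0.0409 and 0.0631. The mean over all genes varied by 0.0070 in control and 0.022 with LA717. Mitotic minus transport kinesins was −0.02, −0.07 and 0.29 in control and 0.08, 0.24 and 0.37 with LA717, a difference of 0.16 against a pooled SD of 0.173. The difference of the list medians, 0.16 as well, was 0.09 without LA717 replicate 3, 0.07 without control replicate 2 and 0.26 without control replicate 3.

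The mitotic kinases and the centromere genes repeated the pattern of the mitotic kinesins. Their means were 6.14, 6.16 and 6.50 in control and 6.27, 6.46 and 6.63 with LA717 for the kinases, and 5.51, 5.51 and 5.74 and then 5.48, 5.67 and 5.81 for the centromere genes. In both lists control replicate 3 stood above LA717 replicates 1 and 2. Compared by replicate number, the kinase mean was higher with LA717 each time. The centromere mean was higher with LA717 in replicates 2 and 3 and lower in replicate 1. The list means of the other kinesins and of the other PLK and NEK kinases varied little too, with SDs of 0.0307 and 0.0212 in control and 0.0242 and 0.0219 with LA717. Such means even out members that vary apart from each other. Per gene the median pooled SD was 0.121 in other kinesins, 0.116 in transport kinesins and 0.0784 in the other PLK and NEK kinases. It was 0.2265 in mitotic kinesins and 0.128 over all genes.

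**Figure D4:**
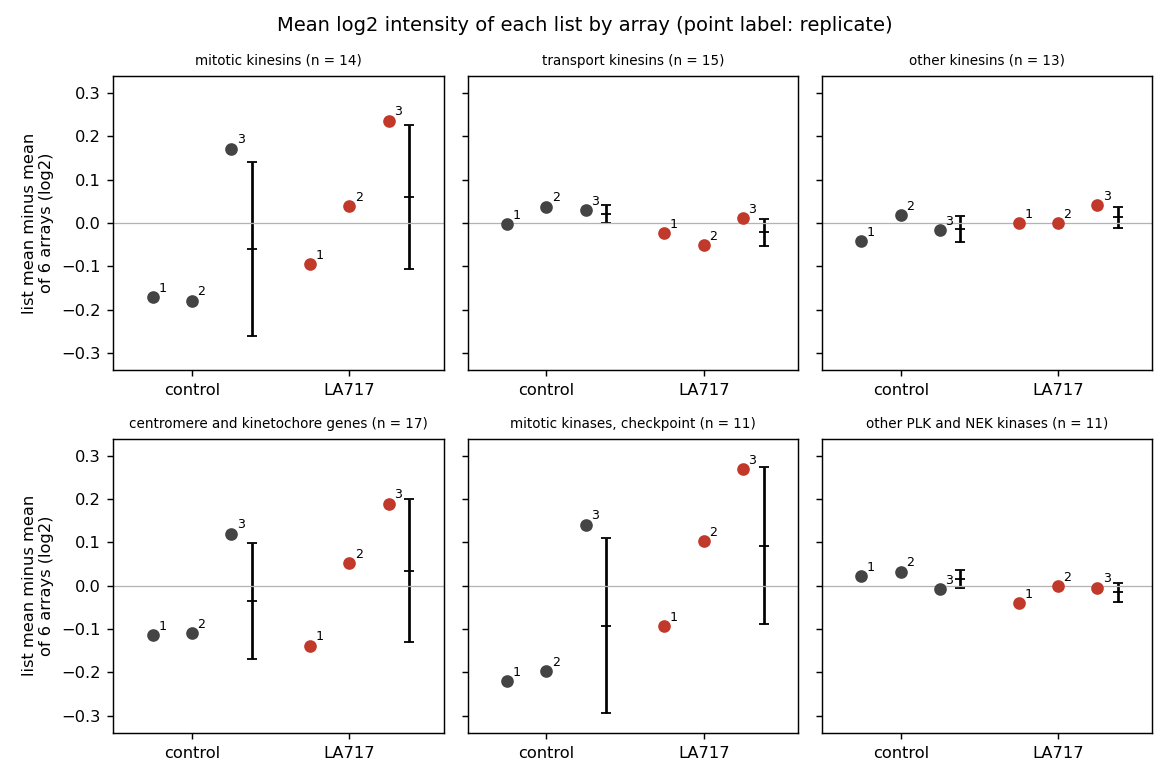
Mean log2 intensity of each list on each array, minus its mean over 6 arrays (vertical axis), with control in grey, LA717 in red, replicate numbers beside the points and bars for mean ± SD (n = 3). The upper left and the lower left and middle panels, the mitotic lists, span far more than the other 3, and replicate 3 is the highest point of each group in them.

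Replicate 3 was compared with the other replicates of its group, a contrast chosen after the values were seen. Of the 42 genes of the mitotic kinesin, centromere and mitotic kinase lists, replicate 3 was the highest of the 3 arrays in 36 in control, against 35.1% of all genes. With LA717 it was the highest in 34, against 37.8% of all genes. It was so in both groups in 30 of the 42, against 15.4% of all genes and 17% of the 10845 genes not under the overall probe set median. Of the other 41 members this held in 7. For the 14 mitotic kinesins it held in 12, the exceptions being KIF11 and KIF4B. For the transport kinesins it held in 5 of 15 (33.3%), which is also above the 15.4% of all genes. Of the 42 genes 26 had their highest value of all 6 arrays in LA717 replicate 3 and 11 in control replicate 3. Their lowest value fell in control replicate 1 for 13, in LA717 replicate 1 for 12 and in control replicate 2 for 11.

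In size, control replicate 3 exceeded the mean of control replicates 1 and 2 by a median of 0.28 over the 42 genes, and LA717 replicate 3 exceeded its fellows by 0.28 too. Over all genes these medians were −0.0021 and 0.02. Some cell type markers differed in replicate 3 as well. Of the 3 leukocyte markers, CD68 was lower by the same measure (−0.22 in control and −0.24 with LA717) and so was CD14 (−0.14 and −0.53), whereas SPI1 gave −0.14 and 0.22. The keratin genes KRT18, KRT8 and KRT7 gave 0.15, 0.24 and 0.16 in control and 0.01, −0.06 and 0.15 with LA717. Of the 3 fibroblast markers, LUM gave −0.24 and 0.34, THY1 −0.19 and −0.04 and DCN −0.26 and −0.16. The endothelial markers VWF, PECAM1 and KDR ranged from −0.10 to 0.13 in control and from −0.28 to 0.39 with LA717. The titles name A549 cells alone, so these are values of marker genes and not measures of other cell types. Their relation to the replicate 3 shift was not tested. The replicate 3 measure sets 1 array, picked after the values were seen, against 2, whereas the difference between LA717 and control averages 3 arrays per group. Their sizes are therefore not like for like. The median difference between LA717 and control was 0.13 over the same 42 genes. Of the 42 differences 35 were positive, with 26 without LA717 replicate 3 and 37 without LA717 replicate 1. KIF4A gave 0.86 in control and 0.44 with LA717, KIF20A 0.58 and 0.40, and BUB1 0.66 and 0.43. The typical pooled SD of a gene was 0.227 in these lists, 0.113 in the other members and 0.128 over all genes. No label gives the replicate number a meaning beyond its name, and the part that culture, cell density or array handling had in the pattern was not tested. In bulk RNA, more dividing cells and more transcript per dividing cell cannot be told apart.

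**Figure D5:**
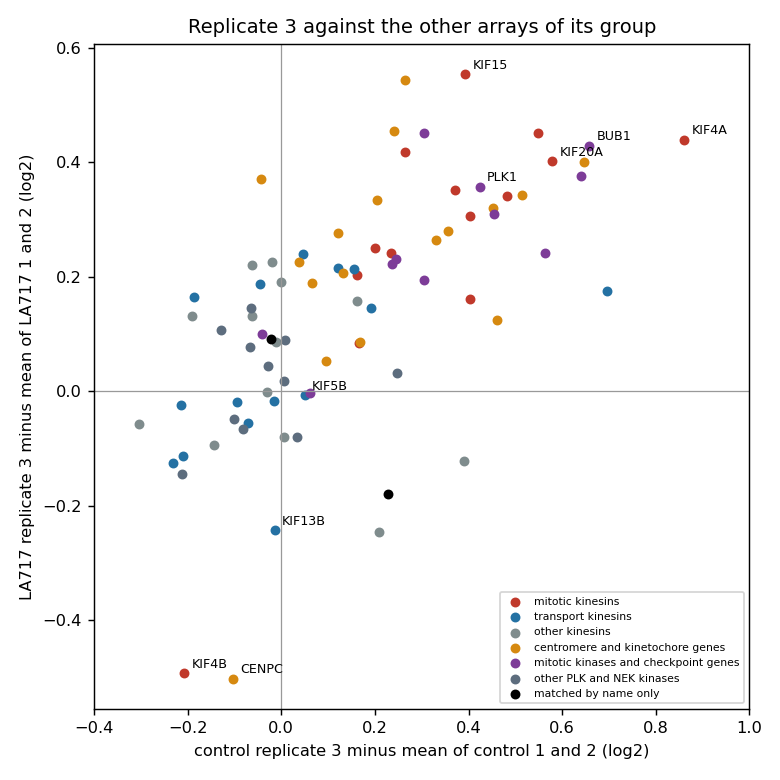
Each point is a member, placed by replicate 3 minus the mean of replicates 1 and 2 in control (horizontal axis) and with LA717 (vertical axis), both in log2, and coloured by role. Mitotic genes such as KIF4A (0.86 and 0.44) lie in the upper right, and KIF4B and CENPC fall below 0 on both axes. Of the transport kinesins, KIF5B lies near 0 and KIF5A at 0.70 and 0.17.

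The array pattern was seen in genes with and without a CHR match. Of the 42, 21 held a CHR in the promoter window, and replicate 3 was the highest in both groups in 16 of them, with median excesses of 0.37 in control and 0.31 with LA717. Of the 14 with a promoter but no match, it was so in 9, with 0.22 and 0.30. The median differences between LA717 and control were 0.13 and 0.12. These are descriptions over genes that share arrays, with no test.

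Among the other kinesins, KIF24, a depolymerase of centrioles, read 4.28, 4.54 and 4.80 in control and 4.68, 4.89 and 4.66 with LA717, and KIF9, a motor linked to motile cilia, read 3.77, 3.72 and 3.90 and then 4.02, 3.86 and 4.10. Their differences were 0.20 and 0.19, and the groups overlapped in both. KIF26A, an unconventional kinesin without motor activity, read 5.39, 5.20 and 5.15 and then 5.24, 5.03 and 5.04. KIF2A, a depolymerase of spindle poles and neurites, ranged from 7.85 to 8.23 and KIF6 from 1.98 to 2.39, neither separating the groups. Differences were positive in 8 of the 13 genes, and the median was 0.02, between −0.045 and 0.068 when single arrays were omitted.

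The other PLK and NEK kinases included 3 genes whose groups did not overlap, all lower with LA717. NEK8, a kinase of the ciliary base, read 5.87, 5.79 and 5.75 in control and 5.66, 5.57 and 5.55 with LA717, a difference of −0.21 (interval −0.41 to −0.01). It was the 1 member at an unadjusted p under 0.05 on the low side, which 2.51% of all genes reached, and its limma adjusted p was 0.92. NEK9, which activates NEK6 and NEK7 in mitosis, read 7.71, 7.75 and 7.70 and then 7.48, 7.60 and 7.58, and PLK3, a stress-responsive Polo-like kinase, read 5.78, 5.76 and 5.80 and then 5.69, 5.74 and 5.63. Their differences were −0.16 and −0.10. PLK2, a centriole and stress-response kinase, ranged from 8.85 to 9.11, NEK10 from 3.94 to 4.28 and NEK5 from 2.00 to 2.37, each with groups that overlapped. The 11 genes had a median difference of −0.0011, with 5 positive. The 3 genes that separated on the low side compare with the 6.66% given above for all genes, as does CENPBD2P, which read 6.31, 6.49 and 6.38 in control and 6.15, 6.21 and 6.27 with LA717. KIF9-AS1 ranged from 2.93 to 3.62 without separating the groups, and strand or overlap with KIF9 was not examined.

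Over all 83 members, 53 had a positive difference, against 47.9% of all genes, and the median was 0.04. Groups did not overlap in 8 members. Of these HASPIN, PLK4 and CENPI were higher with LA717, and KIF13B, NEK8, NEK9, PLK3 and CENPBD2P were lower. Together they make 3.61% and 6.02% of the members, close to or under the 4.86% and 6.66% of all genes. At an unadjusted limma p under 0.05 there were 2 of 83 members, HASPIN and NEK8, against 4.4% of all genes in either direction, and 0 passed adjustment over the 53617 probe sets. The number at an unadjusted p under 0.05 was 8 without LA717 replicate 1, 5 without control replicate 3 and 1 without LA717 replicate 3 or either of control replicates 1 and 2.

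Other genes of mitosis, outside the families chosen by symbol, behaved like the mitotic kinesins. Of 66 on the list 49 were measured, 39 of these had a positive difference and the median was 0.11. Replicate 3 was the highest array of both groups in 38. TROAP, a gene for a microtubule-associated cell adhesion protein, read 4.59, 4.68 and 4.80 in control and 4.96, 4.92 and 5.04 with LA717, a difference of 0.28 with groups that did not overlap. SKA3, of the complex that tracks microtubule ends, and CDC25C, the phosphatase that activates CDK1, each differed by 0.27 with groups that overlapped. In 3 of the 49 the groups did not overlap, TROAP, CDC25B and CKAP5, all higher with LA717, a share of 6.12% against 4.86% of all genes. By limma 1 of the 49 reached an unadjusted p under 0.05, on the high side, which is near the 1.89% of all genes, and 0 passed adjustment.

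The partners of transport motors, the kinesin light chains, dynein and dynactin, resembled the transport kinesins. Of 25 genes 12 were measured, 6 had a positive difference, and the median was −0.00016. Replicate 3 was the highest array of both groups in 3 (25%), against 15.4% of all genes. The dynactin subunit genes DCTN4 and DCTN1 differed by −0.18 and −0.15 with groups that did not overlap, 2 of 12 against 6.66% of all genes on the low side, and ACTR10 by −0.08 with groups that overlapped. None of the 12 reached an unadjusted p under 0.05 by limma.

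DNA replication genes, expressed in an earlier phase of the cell cycle than the mitotic genes, were measured in 21 of 29. Positive differences were seen in 18, the median was 0.18, and replicate 3 was the highest array of both groups in 14. MCM10, which helps to open replication origins, read 5.89, 5.85 and 6.14 in control and 6.18, 6.29 and 6.61 with LA717. CDT1, the licensing factor, read 6.19, 6.39 and 6.53 and then 6.67, 6.63 and 6.81. In both the groups did not overlap, the differences were 0.40 and 0.33, and the limma adjusted p was 0.92. RRM2, a ribonucleotide reductase subunit gene, differed by 0.28 with groups that overlapped. Over the 21 genes the groups did not overlap in 3 on the high side, MCM10, CDT1 and PCNA, and in 1 on the low side, CCNE1, against 4.86% and 6.66% of all genes. By limma 2 of the 21 were at an unadjusted p under 0.05, both higher with LA717, against 1.89% of all genes in that direction, and 0 passed adjustment. In their promoters an E2F-type element was present in 13 of 24 (54.2%) and a CHR in 2 of 24, whereas among the other mitosis genes a CHR was present in 40 of 55 (72.7%) and among the motor partners in 0 of 20.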

How the data were processed

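Total RNA was analysed on GeneChip Human Gene 2.0 ST arrays. The deposited table holds 1 log2 intensity per probe set and array, made by the authors with Affymetrix Expression Console. Summarisation, normalization and genome build were not given in the sources used here. A kit for a different type of array stands in the labels. Values were used as deposited. Control probe sets are not marked, so none was left out. Depth does not apply, and the number of arrays limits the precision.

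Differences were fitted over all 53617 probe sets with limma 3.58.1 in R 4.3.3 (lmFit, eBayes, two-sided, Benjamini-Hochberg adjustment, threshold 0.05), with no block. Intervals are moderated 95% intervals. The fit was tested on simulated arrays with values drawn independently for each probe set. They held no shift shared by many genes, such as that of replicate 3, so the test does not cover one. Platform annotation named 16098 probe sets with 1 gene, 0 with several and 37519 with none, and all 83 member symbols equalled RefSeq symbols. The members and lists were chosen with earlier results of these data known, so lists are described by counts and medians with no test. Genes named were a fixed set of well-known members and, per list, the 3 greatest differences, the highest and lowest mean, and genes with groups that did not overlap or an unadjusted p under 0.05. Others are marked in the text, and KIF5A was named in a caption outside these rules. For the partner lists the 3 greatest differences and the genes with groups that did not overlap were named. Promoters from RefSeq (GRCh38.p14) matched 66 of 83 members by Entrez gene identifier, and partner genes were matched by symbol. Planned protein comparisons were not made, and protein sequences were not used here. Alternatives were variance and array-weight settings, a replicate block, quantile normalization, median centring, a filter on dim probe sets, averaging probe sets and leaving out each array. Promoter counts and figures were made in Python 3.11.15 with matplotlib 3.10.9.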

Additional observations from a re-analysis of the deposited data

How the results depend on the processing

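No probe set passed adjustment under any of the 13 alternatives. Of 568 values of 44 named members, 541 kept their sign. With array weights KIF5B stood at 0.0021 and PLK2 at −0.0095. With an intensity trend and robust variance 4 members were at an unadjusted p under 0.05, against 2, and 1 to 8 when single arrays were omitted. The median of the other PLK and NEK kinases was −0.031 without dim probe sets, and −0.0496 to 0.028 when single arrays were omitted. Such fits gave −0.082 to −0.017 for transport kinesins, −0.045 to 0.068 for other kinesins, and 41 to 56 positive differences among the 83 members. Signs turned when 1 array was left out for KIF11 (−0.060 to 0.15), KIFC1 (−0.019 to 0.18), KIF2B (−0.16 to 0.0097), KIF5B (−0.026 to 0.015), KIF1B (−0.071 to 0.024), KIF3A (−0.031 to 0.098), KIF6 (−0.024 to 0.15), AURKB (−0.042 to 0.23), BUB1B (−0.0085 to 0.19), BUB3 (−0.012 to 0.036), NEK2 (−0.016 to 0.36), CENPA (−0.034 to 0.22), CENPX (−0.15 to 0.0027), PLK2 (−0.063 to 0.056), NEK5 (−0.032 to 0.16) and KIF9-AS1 (−0.015 to 0.30). These fits have fewer arrays by construction, and other causes were not tested. Over all probe sets same-numbered arrays deviated together only weakly (correlations 0.024, 0.015 and 0.033, each the highest for its number), and numbers were not taken as pairs. These correlations cannot show whether same-numbered arrays shared an effect in the mitotic genes, where replicate 3 was mostly the highest array of both groups. The fit with a replicate block gave 0 probe sets past adjustment, and 3 members were at an unadjusted p under 0.05. No measure of signal over background comes with the values, so narrow intervals of dim probe sets do not bound the transcript.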
